A study of Mus musculus with 8 samples.

Results

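The comparison described here is that of mouse lumbar dorsal root ganglia on the injured side with those of the uninjured (contralateral) side, 7 days after the left L4 spinal nerve had been tied. It rests on 1 pooled library a side, 2 of the 8 libraries of the series. Genes were kept where the higher of the 2 libraries held at least 50 reads, which left 13384 of 53801 genes. A further 12117 genes had 1 to 49 reads and 28300 had none. At the limit itself, 33 genes had exactly 50 reads and 38 genes had 49. A gene could be kept through its higher side alone, which favours large ratios among genes of low counts. Each gene is described by its log2 ratio of injured over contralateral reads scaled to library size (CPM, the usual scaled read count), and a ratio past 2-fold is called higher or lower.

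The somata of the sensory neurons lie in the dorsal root ganglia, and these cells carry touch, temperature, pain and limb position to the spinal cord. Satellite glia wrap each cell body, Schwann cells wrap the axons, and resident macrophages and vessels lie between them. When the peripheral axon is cut or tied, sensory neurons are known to switch on a growth programme led by the transcription factors Atf3, Jun and Sox11, to make other neuropeptides, and to make less of many ion channels and receptors.

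Per the labels all animals were male C57BL/6J mice, the nerve was tied tightly with silk, and the ganglia of L3, L4 and L5 were pooled, so each library of the injured side includes L3 and L5, for which no ligation is described. Every library pools 3 mice. The injured and the contralateral library of a day come from the same mice, which served as their own controls. The series has such a pair at days 1, 3 and 7, and a pair of left and right ganglia from mice labelled as having no injury. The titles of the pair without injury add WT (wild type), whereas the titles of the operated libraries name no genotype. The protocol mentions sham operations, but no library is labelled sham, so operation and ligation cannot be told apart.

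Library sizes were close, from 20488115 to 21652688 reads over the 8 libraries, with 21123716 on the injured and 21244095 on the contralateral side at day 7. The labelled tissue was borne out by its markers: all 23 pan-neuronal genes of the list had 50 or more reads at day 7, as did all 17 satellite glia genes and 19 of 20 genes of myelinating Schwann cells. The following departures bear on the comparisons. The pool labelled no injury had 4931 and 4129 reads of Xist, the RNA of the inactive X chromosome, against at most 3 in any operated library, which goes against the label of male mice. Skeletal muscle genes summed to 1840 CPM in the right and 381 CPM in the left library without injury, against 103 to 255 CPM elsewhere. Neutrophil genes summed to 601 CPM in the contralateral library of day 1 and 313 CPM in the left library without injury, against 39.7 to 117 CPM elsewhere.

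With 1 library a side the day 7 ratios have no test, and their 95% intervals cover counting error only. The left over right ratio without injury, computed in the same way, serves as background. The injured side exceeded the other by 2-fold or more for 416 genes (3.11%) at day 7 and lay below it by as much for 99 genes (0.74%). The median fold of the higher genes was 2.64, and 75 of them were past 4-fold. The lower genes were 2.21-fold lower in the median, and 1 was past 4-fold. Without injury, 53 of 13192 genes (0.402%) passed 2-fold towards the left and 65 (0.493%) towards the right. Of genes with 1000 or more reads, 110 of 5070 were past 2-fold upwards at day 7 against 2 of 4861 without injury, whereas downwards the counts were 11 and 14. The 14 include the skeletal muscle genes Myh4, Atp2a1, Actn3 and Tnni2 (left over right log2 ratios -3.7, -3.27, -3.23 and -2.81). Muscle RNA in the right library thus raises this part of the background. At 50 to 200 reads the downward counts were 56 of 2914 and 28 of 2859. In bulk ganglia, fewer cells of a type and less RNA per cell cannot be told apart.

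**Figure D1:**
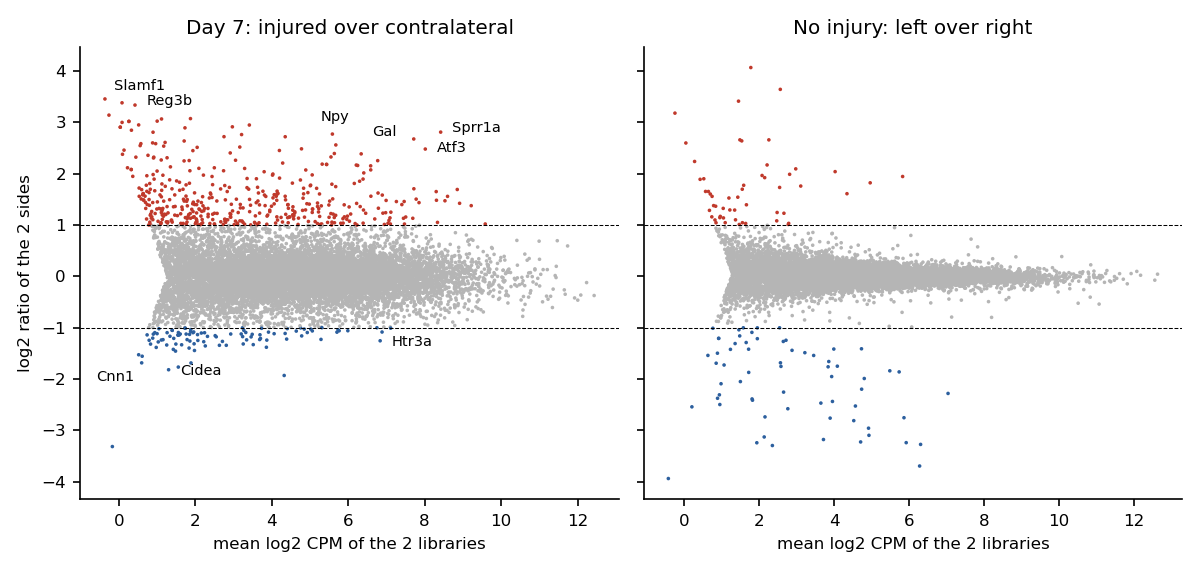
Log2 ratio of the 2 sides (vertical axis) against the mean log2 CPM of the 2 libraries (horizontal axis) for each gene with 50 or more reads, at day 7 (left panel, injured over contralateral) and without injury (right panel, left over right). Each point is a gene, dashed lines mark 2-fold, and genes past 2-fold are coloured: 416 higher and 99 lower at day 7, 53 and 65 without injury.

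The effect of injury was tested in libraries that the day 7 ratio does not use. In the 6 libraries of days 1 and 3 and of no injury, blocked by pool, edgeR's quasi-likelihood test called 466 of 13375 genes with 50 reads at day 7 higher (3.48%) and 156 lower (1.17%) after injury, with Benjamini-Hochberg adjusted p under 0.05. Of the 416 genes past 2-fold upwards at day 7, 407 could be tested and 126 (31%) were called higher and 0 lower. Of the 99 genes past 2-fold downwards, all 99 were tested, 18 (18.2%) were called lower and 0 higher. Conversely, 126 (27%) of the 466 genes called higher and 18 (11.5%) of the 156 called lower were past 2-fold at day 7 in the same direction. These calls need the pool without injury, because without it the same test calls 0 genes either way, with 1491 higher and 930 lower at an unadjusted p under 0.05. In what follows "called in the other libraries" refers to this test. It treats days 1 and 3 as replicates of the injured state. With pools blocked, its p-values measure the spread of side differences: left against right without injury, and day 1 against day 3.

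The transcription factors of the growth programme were higher on the injured side. Of 18 in the list, 6 were past 2-fold and 17 above 0, with a median log2 ratio of 0.68 against 0.00 for all genes. In the other libraries 11 of the 18 rose and 0 fell. Atf3, an activating transcription factor that marks injured sensory neurons, stood at 612 CPM injured and 110 contralateral at day 7, at 617 and 169 at day 3, at 474 and 126 at day 1, and at 10.8 and 11 left and right without injury. Every injured library thus exceeded every contralateral library, and every contralateral library exceeded both libraries without injury. The day 7 ratio was 5.58-fold (log2 2.48, counting interval 2.42 to 2.55), and in the other libraries Atf3 rose by 1.89 ± 0.08 (SE, edgeR adjusted p = 0.00147).

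Sox11, a factor of embryonic neurons needed for axon regrowth, read 85.2 CPM injured and 18.7 contralateral at day 7, 79.3 and 24.6 at day 3, 46.1 and 17.8 at day 1, and 8.19 and 8.95 without injury. Jun, a partner of Atf3 in the AP-1 complex, read 271 and 122 CPM at day 7, 268 and 144 at day 3, 307 and 150 at day 1, and 110 and 112 without injury. The injured libraries of both genes lay above all others, and all 3 contralateral libraries lay above both libraries without injury. Their day 7 ratios were 4.55-fold and 2.23-fold. Nfil3 (2.79-fold), Csrnp1 (2.52-fold) and Klf6 (2.03-fold) completed the members past 2-fold. Stat3, which relays cytokine signals to these genes, was 1.3-fold higher and was not called in the other libraries (edgeR adjusted p = 0.251).

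Growth-associated genes had the highest median of the 46 lists, whose members were chosen with earlier results of these data known. Of 26 members 14 were past 2-fold upwards and 0 downwards, with a median log2 ratio of 1.18, and 10 of the 25 that could be tested rose in the other libraries. Sprr1a, a cornified-envelope protein that regenerating axons make, read 907 CPM injured and 129 contralateral at day 7, 457 and 128 at day 3, 9.34 and 3.53 at day 1, and 0.144 and 0.325 without injury. The 4 libraries of days 3 and 7 stood far above the other 4 on both sides. The day 7 ratio of 7.01-fold (log2 2.81, counting interval 2.75 to 2.87) was below that of Reg3b (10.1-fold) and above those of Ecel1 (5.25-fold), Lmo7 (5.23-fold), Tubb6 (4.47-fold) and Flrt3 (4.21-fold). Gap43, a protein of growth cones, read 791 and 295 CPM at day 7, 611 and 314 at day 3, 235 and 200 at day 1, and 207 and 219 without injury. At day 1 its sides were close, and at days 3 and 7 both injured libraries stood apart from the other 6.

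Cacna2d1, the calcium channel subunit that binds gabapentin, read 961 CPM injured and 370 contralateral at day 7, 776 and 429 at day 3, 411 and 330 at day 1, and 273 and 277 without injury. It was 2.6-fold higher at day 7 and, among the 21 calcium and HCN channel genes with 50 reads, no other passed 2-fold upwards. Chl1, an adhesion molecule of growing axons, was 3.14-fold higher at day 7 (560 and 178 CPM), and Itga7, a laminin receptor, 3.23-fold (832 and 257 CPM). Reg3b, a secreted lectin, read 4.18 CPM injured and 0.328 contralateral at day 7 and at most 0.142 CPM in each of the other 6 libraries, 89 reads against 7 at day 7. Its relative Reg1 read 3.33 and 0.328 CPM at day 7, 0.603 and 0.0472 at day 3, and 0 in both libraries of day 1 and both without injury. Reads of such related genes can be shared between copies.

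**Figure D2:**
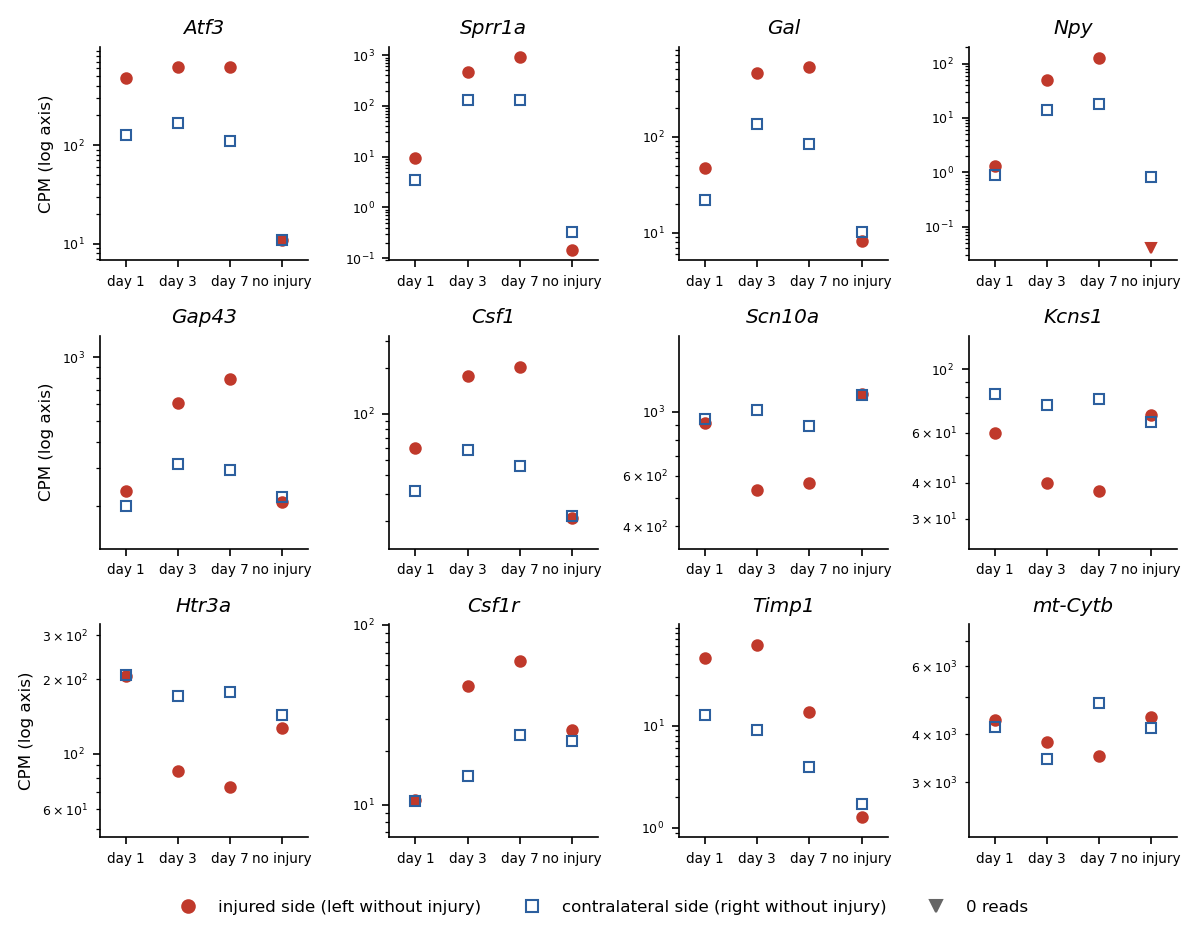
CPM (vertical axis, log scale) of 12 genes in the 8 libraries, by day after ligation and without injury (horizontal axis). Filled circles are injured-side libraries (left ganglia without injury), open squares contralateral libraries (right ganglia without injury), each 1 pool of 3 mice, and triangles mark 0 reads. Atf3, Sprr1a, Gal, Npy, Gap43 and Csf1 are higher on the injured side at day 7, Scn10a, Kcns1, Htr3a and mt-Cytb lower.

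Because AP-1 factors were among the higher genes, the 250 bases before the RefSeq start of each gene (GRCm38.p6) were searched for the AP-1 letters TGACTCA on both strands (TGAGTCA on the other). A window was found for 304 of the 416 higher genes, 78 of the 99 lower genes and 10377 of the 13384 genes kept. The letters stood in the window of 31 higher genes (10.2%), 4 lower genes (5.13%) and 409 of all genes kept (3.94%), and in 1466 of all 32851 RefSeq windows (4.46%). The cyclic-AMP response letters TGACGTCA, which read the same on both strands and do not overlap the AP-1 letters, stood in 3 higher genes (0.987%), 1 lower gene (1.28%) and 314 of all (3.03%). These are letter matches and say nothing of binding. The 4 windows shown belong to the named higher genes that hold the letters and have the highest CPM: Srxn1, which repairs oxidised peroxiredoxins (1100 and 540 CPM at day 7, 2.03-fold), Sprr1a, the neuropeptide gene Nts and Anxa10. They run 5′ to 3′ on the strand of the gene up to the annotated start, the capitals mark the AP-1 letters, and the matches nearest the RefSeq start end 38, 109, 200 and 9 bases before it.
Srxn1, chr2:152105274-152105515, plus strand: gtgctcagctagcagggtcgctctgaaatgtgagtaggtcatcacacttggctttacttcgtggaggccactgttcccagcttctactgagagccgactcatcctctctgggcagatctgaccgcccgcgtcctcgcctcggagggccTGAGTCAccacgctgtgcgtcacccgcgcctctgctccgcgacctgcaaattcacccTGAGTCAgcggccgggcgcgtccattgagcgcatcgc
Sprr1a, chr3:92485896-92486131, minus strand: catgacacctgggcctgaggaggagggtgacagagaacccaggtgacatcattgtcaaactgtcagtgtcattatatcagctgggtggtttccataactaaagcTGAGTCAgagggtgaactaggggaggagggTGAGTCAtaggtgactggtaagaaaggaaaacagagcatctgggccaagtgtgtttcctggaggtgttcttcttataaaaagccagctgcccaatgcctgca
Nts, chr10:102490487-102490668, minus strand: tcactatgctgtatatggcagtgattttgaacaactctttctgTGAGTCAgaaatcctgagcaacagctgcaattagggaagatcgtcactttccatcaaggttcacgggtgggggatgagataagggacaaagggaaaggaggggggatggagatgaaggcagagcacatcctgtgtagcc
Anxa10, chr8:62123194-62123443, minus strand: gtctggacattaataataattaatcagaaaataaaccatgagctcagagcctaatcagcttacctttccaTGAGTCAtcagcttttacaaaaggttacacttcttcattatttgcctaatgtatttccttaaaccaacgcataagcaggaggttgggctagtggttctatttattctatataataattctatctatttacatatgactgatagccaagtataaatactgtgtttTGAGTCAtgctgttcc
Every match in these windows reads TGAGTCA on the strand of the gene.

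Genes that were near 0 without injury allowed the contralateral level to be set against the injured level directly. At day 7, 12 protein-coding genes past 2-fold had at least 10 CPM on the injured side and under 1 CPM without injury. Above the level without injury, the contralateral library held 8.42 to 19.4% of the injured amount at day 7 (median 14.4%), where the 2-fold limit of the choice caps the share. Sprr1a stood at 14.2%, the neuropeptide gene Npy at 14.3%, the fibroblast growth factor gene Fgf3 at 14.3%, the serotonin transporter gene Slc6a4 at 14.5%, Ecel1, an endopeptidase of injured neurons, at 18.7% and Cckbr, a cholecystokinin receptor, at 17.8%. At day 3, in another pool of mice, 10 of the 12 genes reached 10 CPM and the share was 15.6 to 41.2% (median 27.9%). It was lower at day 7 than at day 3 in all of these genes but Slc15a3 (18.8% and 15.6%). All 12 were chosen by their day 7 ratio and level, which favours a low share at day 7. The difference between the days was not tested.

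The side ratios of these genes ran from 3.85-fold to 8.41-fold (median 6.69), and their injured levels from 10.6 to 907 CPM. With levels near 0 without injury, these ratios largely restate the shares, and the 2-fold limit of the choice bounds them from below. Lipn, a lipase, read 21.4 CPM injured and 2.77 contralateral at day 7, 17.7 and 4.58 at day 3, 0.25 and 0 at day 1, and 0 in both libraries without injury. Anxa10, an annexin, read 29.6 and 3.75 CPM at day 7, 8.58 and 1.51 at day 3, 0.0499 and 0.141 at day 1, and 0 without injury. Contralateral transcription and RNA of the injured side in the contralateral library cannot be told apart from these counts. Of 13 genes that met the same limits on level, sex chromosomes left out, 1 fell short of 2-fold. This was Gfap, the glial filament gene (12.3 and 6.09 CPM, 1.99-fold), with a mean of 0.847 CPM without injury. Its contralateral share was above those of all 12 genes, so their range of shares depends on the 2-fold limit.

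**Figure D3:**
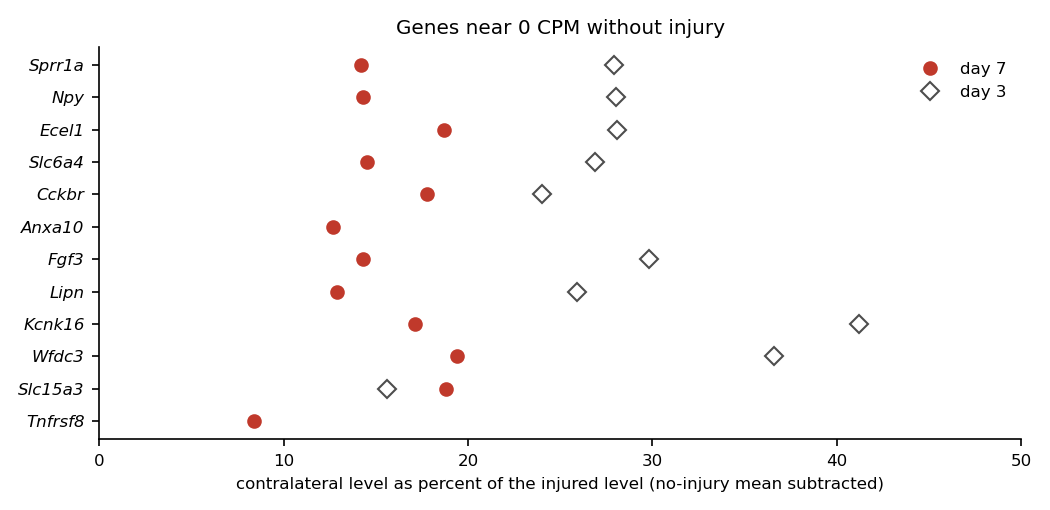
Contralateral level as a percent of the injured level of the same pool, after subtracting the mean of both libraries without injury (horizontal axis), for 12 genes under 1 CPM without injury (vertical axis). Filled circles are day 7 (median 14.4%), open diamonds day 3 where the injured level reached 10 CPM (10 genes, median 27.9%). The genes were chosen by their day 7 values.

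The neuropeptide genes split into a higher and a lower group. Of 16 members with 50 reads, 7 were past 2-fold upwards and 0 downwards, 8 lay above and 8 below 0, and the median log2 ratio was 0.21. Gal, the peptide galanin, read 532 CPM injured and 83.1 contralateral at day 7, 457 and 135 at day 3, 47.4 and 22.1 at day 1, and 8.29 and 10.3 without injury. Npy, neuropeptide Y, read 126 and 18.3 CPM at day 7, 49.6 and 14.2 at day 3, 1.3 and 0.893 at day 1, and 0 and 0.835 without injury. The day 7 injured library held the highest level of both peptides, 6.39-fold and 6.83-fold above the contralateral library, and Gal rose in the other libraries (edgeR adjusted p = 0.0295) while Npy did not pass (edgeR adjusted p = 0.318).

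The other peptide genes past 2-fold upwards were Grp (7.2-fold, 3.29 and 0.375 CPM), Crh (5.71-fold, 9.81 and 1.64 CPM), Nts (3.51-fold, 134 and 38.2 CPM), the granin Vgf (2.84-fold, 370 and 130 CPM) and Adcyap1, which encodes PACAP (2.64-fold, 275 and 104 CPM). Adcyap1 had its highest level at day 3 (461 CPM). The peptides of uninjured nociceptors lay below 0: Tac1, the substance P gene, read 147 and 203 CPM at day 7 (log2 ratio -0.47), Calca, the CGRP gene, 898 and 1110 (-0.31), and Sst, somatostatin, 3.29 and 6.14 (-0.88). Vip was below 50 reads in both day 7 libraries. Galr1, a galanin receptor, read 1.13 and 2.34 CPM, just short of the 2-fold limit, while the neuropeptide Y receptor gene Npy1r read 68 and 40.1 CPM (log2 ratio 0.76) and rose in the other libraries (edgeR adjusted p = 0.0458).

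Secreted growth factors and their receptors were mixed. Of 22 members of the list of other growth factors and receptors 7 were past 2-fold upwards and 0 downwards (median 0.50). Csf1, the macrophage growth factor that injured sensory neurons make, read 203 CPM injured and 45.6 contralateral at day 7, 176 and 57.7 at day 3, 59.5 and 31.3 at day 1, and 21 and 21.4 without injury. Its receptor gene Csf1r, which macrophages carry, read 63.3 and 24.4 CPM at day 7, 45.8 and 14.5 at day 3, 10.6 and 10.5 at day 1, and 26.1 and 22.5 without injury. The ligand was thus higher on the injured side on every day, the receptor only at days 3 and 7, and the day 7 folds were 4.45 and 2.59. Also past 2-fold upwards were Fst, which binds activins (5.6-fold), Igfbp3 (3.47-fold), Inhbb, an activin subunit (3.28-fold), and Egfr (3.0-fold).

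Among the GDNF family receptors Gfra1 (2.77-fold, 617 and 222 CPM) and Gfra3 (2.04-fold, 104 and 50.8 CPM) were higher and were called higher in the other libraries (edgeR adjusted p = 0.0183 and 0.0281), while Gfra2 was 1.62-fold lower (95.8 and 156 CPM). Bdnf, a neurotrophin, read 59.9 and 45.8 CPM (log2 ratio 0.39). Of 9 interleukin 6 family genes with 50 reads 3 were past 2-fold upwards, among them the ligand Clcf1 (2.18-fold) and the feedback inhibitor Socs3 (2.21-fold). Clcf1 read 5.02 CPM on the injured side at day 7 against 23.6 at day 3.

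Growth arrest and apoptosis genes included 9 of 20 members past 2-fold upwards and 0 downwards (median 0.51). Gadd45a, a DNA damage and stress gene, read 171 CPM injured and 42.2 contralateral at day 7, 199 and 63.4 at day 3, 220 and 73.9 at day 1, and 20.9 and 22.4 without injury. Its injured level was highest at day 1 and its ratio was 4.04-fold at day 7. The BH3-only genes Pmaip1 (3.14-fold) and Hrk (3.09-fold) and the cell cycle inhibitor Cdkn1a (2.75-fold, 293 and 107 CPM) were higher too. The receptor gene Eda2r was 5.5-fold higher at a low level (2.49 and 0.375 CPM, 53 and 8 reads). Its contralateral level at day 7 lay below both libraries without injury (0.814 and 0.603 CPM). Of 24 genes of the unfolded protein and integrated stress response, Chac1 (3.01-fold), Sesn2 (2.6-fold) and Trib3 (2.09-fold) passed 2-fold, and the median was 0.19.

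Ion channel genes lay mostly below 0 without passing 2-fold. Of 46 potassium channel genes 35 were below 0, 4 past 2-fold downwards and 0 upwards, with a median log2 ratio of -0.52, and 4 fell in the other libraries. Kcns1, a silent subunit of Kv2 channels, read 37.6 CPM injured and 78.5 contralateral at day 7, 40 and 75.2 at day 3, 59.9 and 82 at day 1, and 69.2 and 65.3 without injury. All 3 injured libraries lay below the other 5, and in the other libraries it fell by 0.68 on the log2 scale (edgeR adjusted p = 0.038). Kcnn3 (2.18-fold) and Kcnn2 (2.0-fold) were also past 2-fold downwards. Kcnj11, the pore of ATP-sensitive potassium channels, stood outside that list and was 2.54-fold lower (4.32 and 11.1 CPM).

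Of 13 sodium channel genes 12 were below 0 and none passed 2-fold (median -0.52). Scn10a, which encodes the nociceptor channel Nav1.8, read 567 CPM injured and 891 contralateral at day 7, 534 and 1010 at day 3, 914 and 945 at day 1, and 1150 and 1140 without injury. Scn1a, which encodes Nav1.1 of large fibres, read 97.5 and 193 CPM at day 7, 101 and 182 at day 3, 153 and 200 at day 1, and 212 and 196 without injury. In both the injured libraries of days 3 and 7 lay below all others. Scn3a, the embryonic Nav1.3, was the sodium channel gene above 0 (6.71 and 5.25 CPM, log2 ratio 0.35, counting interval -0.01 to 0.72), and 0 of the 13 genes were called in the other libraries.

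Receptor genes followed the channels. Among inhibitory G protein-coupled receptors 2 of 23 were past 2-fold downwards, the opioid receptor genes Oprk1 (2.63-fold, 2.11 and 5.72 CPM) and Oprd1 (2.12-fold, 10.3 and 21.9 CPM), and 5 of the 23 fell in the other libraries. For Oprk1 the libraries without injury held 1.77 and 2.83 CPM, about the injured level of day 7. Among 35 excitatory receptors 3 serotonin receptor genes were past 2-fold downwards: Htr3a (2.39-fold, 73.9 and 177 CPM), Htr3b (2.16-fold) and Htr7 (2.17-fold). Htr3a read 85.5 and 171 CPM at day 3, 205 and 208 at day 1, and 127 and 143 without injury, so that its contralateral libraries exceeded both libraries without injury. In the same list the nicotinic subunit gene Chrna5 was 4.81-fold higher (4.65 and 0.891 CPM) and the kainate receptor partner Neto1 3.1-fold higher (54.2 and 17.4 CPM). The GABA receptor subunit gene Gabrb2 was 2.36-fold lower (6.52 and 15.5 CPM) and fell in the other libraries (edgeR adjusted p = 0.0215).

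Markers of neuron types were lower rather than absent. Of 29 nociceptor genes 25 lay below 0 (median -0.51) and 0 passed 2-fold downwards. Mrgprd, a marker of non-peptidergic nociceptors, read 89 CPM injured and 166 contralateral, whereas Trpv1, the capsaicin receptor, read 165 and 142 and P2rx3, an ATP-gated channel, 322 and 236. Of 20 large-fibre genes 18 lay below 0 (median -0.60), and Pvalb (2.08-fold, 44 and 91.9 CPM) and Esrrg (2.09-fold, 23 and 48.3 CPM) passed 2-fold downwards. Pvalb is a muscle gene too, and its level without injury was 106 CPM left and 185 right, in the pair where muscle genes differed. Pan-neuronal genes had a median of -0.19 with 0 of 23 past 2-fold, and Rbfox3, which encodes NeuN, read 170 and 207 CPM.

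Cytoskeletal genes lay on both sides of 0. Of 17 neurofilament and tubulin genes the 3 neurofilament genes read lower, Nefl at 4860 and 6300 CPM, Nefm at 3830 and 4930 and Nefh at 2110 and 3210 (log2 ratios -0.37, -0.36 and -0.61). The tubulins Tubb6 (4.47-fold), Tuba1c (2.83-fold) and Tubb2b (2.07-fold) were past 2-fold upwards, and Tubb3 had the largest gain in CPM of all named genes, from 2790 to 4200. Stmn2, a tubulin-binding protein of growth cones, read 3610 and 2230 CPM. Nefl had the largest loss in CPM of all named genes. Snap25, a protein of vesicle release, read 1160 and 1990 CPM.

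Macrophage genes were higher on the injured side as a list. Of 27 members 14 were past 2-fold upwards and 0 downwards, 26 lay above 0, and the median log2 ratio was 1.01, against 0.41 for the left over right ratio without injury and 1.78 at day 3. Fcgr1, an antibody receptor, was 3.26-fold higher (4.65 and 1.36 CPM), Cx3cr1, the fractalkine receptor, 2.77-fold (20.7 and 7.41 CPM), Trem2 2.71-fold (7.28 and 2.63 CPM) and C1qa, of the complement trigger C1q, 2.44-fold (43.7 and 17.9 CPM). Arg1, an enzyme of repair macrophages, read 2.91 and 1.55 CPM at day 7 against 32.5 and 2.6 at day 3. In the other libraries 2 of the 27 members rose, Arg1 and Cd163, a scavenger receptor (edgeR adjusted p = 0.0471 for Arg1). Cx3cr1 read 2.35 and 2.87 CPM at day 1, so its sides were close then.

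Of 15 chemokine and cytokine genes with 50 reads, 5 were past 2-fold upwards at day 7 and 10 at day 3, and the medians were 0.73 and 2.08. The other 12 of the 27 list members were below 50 reads. The monocyte attractants Ccl8 (2.96-fold), Ccl7 (2.84-fold) and Ccl2 (2.03-fold) were among the genes past 2-fold at day 7, as was Il1rn (2.23-fold). Each of these reached 50 reads on the injured side only, which favours a ratio above 0. Il1rn also had a left over right log2 ratio of 1.62 without injury. Cxcl14 read 5.73 CPM injured and 3.38 contralateral at day 7 against 31.3 and 1.7 at day 3. Neutrophil genes went both ways at day 7 (11 members, 7 above and 4 below 0, median 0.05, summed CPM 99.8 injured and 99.5 contralateral). They ran from Retnlg (log2 ratio -0.65) to Ly6g (4.69 and 0.703 CPM, 6.0-fold), which alone passed 2-fold.

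The 25 genes of matrix and fibroblasts all lay above 0 at day 7, with 3 past 2-fold and a median of 0.50. At day 3 the median was 1.47, 23 of the 25 were past 2-fold, and all 25 had a higher ratio than at day 7. Timp1, an inhibitor of matrix proteases, read 13.5 CPM injured and 3.98 contralateral at day 7, 61.6 and 9.07 at day 3, 46.1 and 12.6 at day 1, and 1.29 and 1.72 without injury. Loxl2, which cross-links collagen, was 3.16-fold higher and Tnc, tenascin C, 2.11-fold. Col1a1 read 244 and 125 CPM. Among proteases and their inhibitors 5 of 16 were past 2-fold upwards (median 0.81), among them Adam8 (5.01-fold, 105 and 20.9 CPM) and Mmp16 (4.53-fold, 92.2 and 20.3 CPM).

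Satellite glia, myelin and vascular lists had medians near 0 at day 7. The list of repair Schwann cells has 16 members, of which 6 were below 50 reads. Of the other 10, 4 were past 2-fold upwards and 9 above 0 (median 0.52), and 4 rose in the other libraries. Those past 2-fold were Gfra1, Jun, Tnc and Runx2. Gfra1, Jun and Tnc also belong to other lists used here, so they are not particular to repair Schwann cells. Satellite glia genes had a median of 0.09 with 0 of 17 past 2-fold, and genes of myelinating Schwann cells a median of 0.16 with 0 of 19 past 2-fold. Gldn, a protein of the node of Ranvier, led the second list at 65.1 and 38.6 CPM (1.69-fold). All 19 genes of the second list had a higher ratio at day 3 than at day 7, and 17 lay above 0 at day 7. Without injury the left over right median of this list was -0.4 (summed CPM 6730 left and 9030 right), further from 0 than its day 7 median. The endothelial and mural list had a median of 0.01, and the smooth muscle genes Acta2 (-0.54) and Myh11 (-0.70) lay below 0 at day 7 and above 0 at day 3 (1.24 and 1.00).

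**Figure D4:**
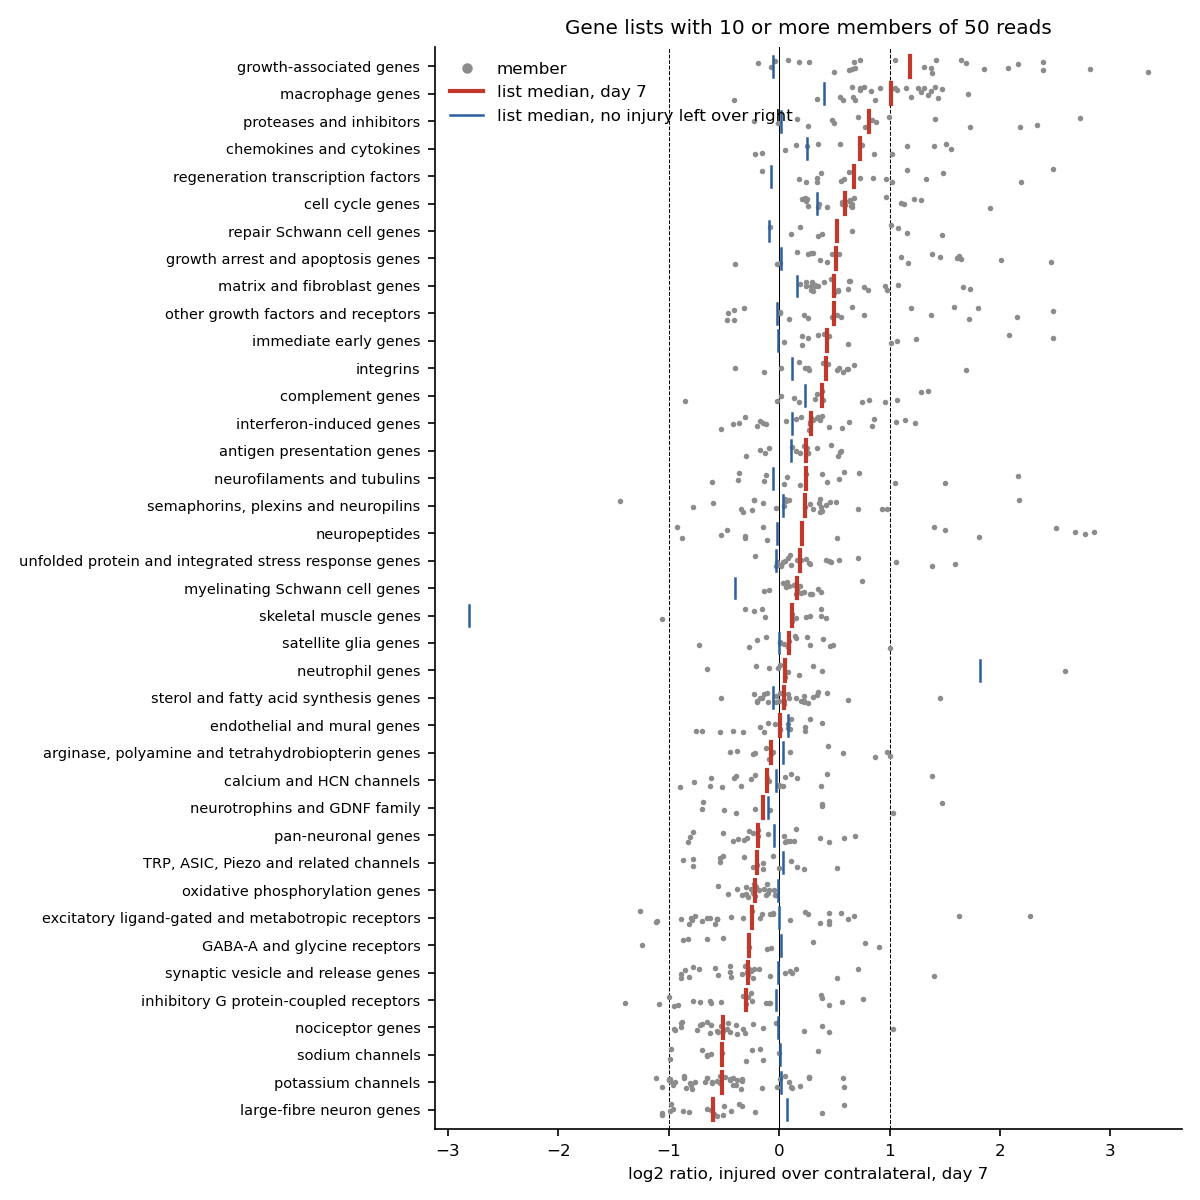
Day 7 log2 ratio, injured over contralateral (horizontal axis), of the members of each gene list with at least 10 members of 50 reads (grey points, each a gene), with the list median at day 7 (red bar) and the list median of the left over right ratio without injury (blue bar). Dashed lines mark 2-fold. The medians run from 1.18 for growth-associated genes to -0.60 for large-fibre neuron genes, and the muscle and neutrophil lists differ most between left and right without injury.

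Genes of energy metabolism were lower by a small amount. All 23 oxidative phosphorylation genes of the nucleus lay below 0 (median -0.22, lowest -0.55). The 6 mitochondrially encoded genes with 50 reads had a median of -0.46, and mt-Cytb read 3500 CPM injured and 4830 contralateral at day 7, 3810 and 3450 at day 3, 4350 and 4180 at day 1, and 4440 and 4150 without injury. The contralateral library of day 7 was the highest of all 8 in mt-Cytb, and the part of RNA quality in the ratio was not tested.

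The highest single ratios belonged mostly to genes of low level. Slamf1, an immune receptor, led the protein-coding genes at 3.33 CPM injured and 0.234 contralateral (71 and 5 reads, 10.4-fold, counting interval of log2 2.54 to 5.50). Reg3b came next, and the T-cell receptor segment Trdc also lay above a log2 ratio of 3. Tnfrsf8, which encodes CD30 (8.41-fold), and Cyp24a1, which breaks down vitamin D (8.38-fold), stood at 10.6 and 6.2 CPM on the injured side. The lowest ratios among protein-coding genes were those of Cidea, a lipid droplet protein (1.22 and 4.55 CPM, 3.53-fold lower), Ankrd34b (1.5 and 5.34 CPM, 3.41-fold lower), Cdkl4 (1.97 and 6.56 CPM, 3.22-fold lower) and Cnn1, a smooth muscle calponin (0.751 and 2.63 CPM, 3.22-fold lower). For Cnn1 the contralateral library of day 7 was the highest of all 8, and against the mean without injury the injured library lay above it (log2 ratio 0.17). Sema5b, a guidance molecule, was 2.72-fold lower (2.3 and 6.42 CPM), whereas Sema6a of the same family was 4.49-fold higher (157 and 34.9 CPM).

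The day 7 ratios were set beside those of day 3 and day 1, which come from other mice. Across genes with 50 reads in both pairs, Pearson's r with day 3 was 0.76 and Spearman's rho 0.75 (13220 genes), with day 1 0.42 and 0.52 (13014 genes), and with the left over right ratio 0.06 and 0.03 (12953 genes). Genes are not independent replicates, and no p is given. Day 3 had more genes past 2-fold, 850 of 13450 upwards (6.32%) and 146 downwards (1.09%), and day 1 fewer upwards, 122 of 13276 (0.919%), and 201 downwards (1.51%). Of the 416 genes higher at day 7, 414 lay above 0 at day 3 with 298 past 2-fold, and 331 lay above 0 at day 1 with 92 past 2-fold upwards and 21 downwards. Of the 99 lower genes 97 lay below 0 at day 3, 28 of them past 2-fold, and 86 at day 1.

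The lists differed in how their ratios at day 7 stood to those of day 3. The ratio at day 7 was above that of day 3 in 20 of 26 growth-associated genes, 14 of 16 neuropeptides and 28 of 29 nociceptor genes, and in 2 of 27 macrophage genes, 2 of 25 cell cycle genes and 0 of 25 matrix genes, against 51% of all genes kept. The 25 cell cycle genes with 50 reads all lay above 0 at day 7 (5 past 2-fold, median 0.60), and 5 of the 30 list members were below 50 reads. Of those past 2-fold, Cenpf, Ube2c and Cdc20 reached 50 reads on the injured side only, which favours a ratio above 0. The left over right ratio of the list without injury also had a median above 0 (0.34). At day 1 the list median was -0.94, in the pair whose contralateral library stood apart in neutrophil genes. Top2a, an enzyme of dividing cells, read 10.5 CPM injured and 4.83 contralateral at day 7, 13.3 and 2.22 at day 3, 0.899 and 9.02 at day 1, and 4.7 and 2.78 without injury.

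**Figure D5:**
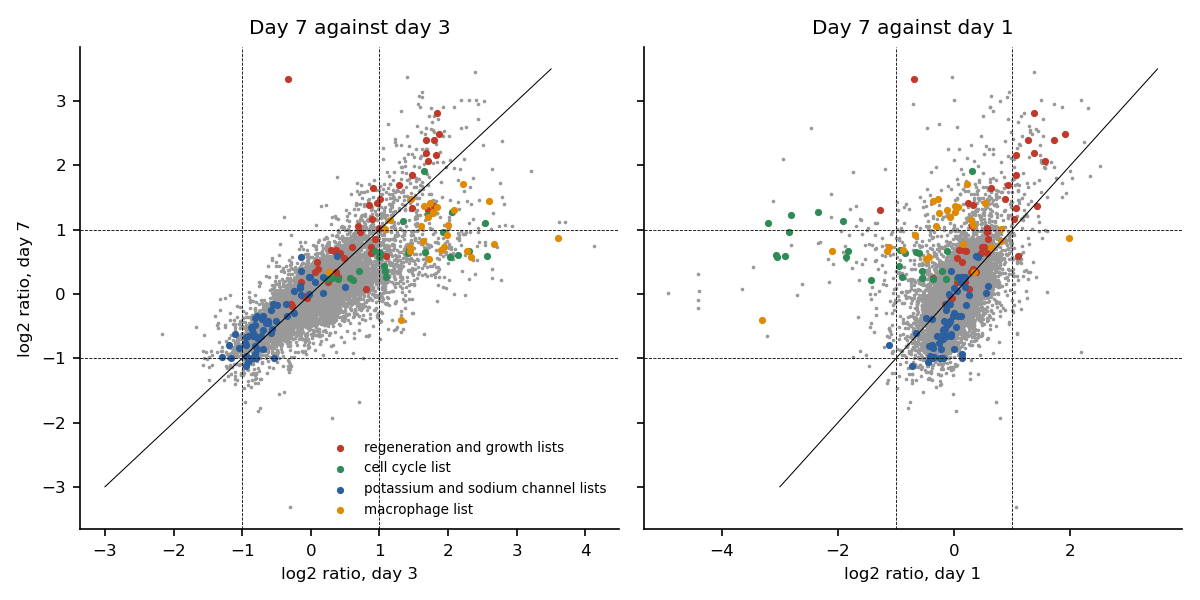
Log2 ratio at day 7 (vertical axes) against that at day 3 (left panel) and day 1 (right panel) for genes with 50 or more reads at day 7 (grey points), with members of 4 sets of lists in colour. Solid lines mark equal ratios and dashed lines 2-fold. In the left panel 2 of 27 macrophage genes and 20 of 26 growth-associated genes have a higher ratio at day 7 than at day 3.

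Whether a side difference at day 7 departed from those of days 1 and 3 was tested in all 8 libraries. The edgeR quasi-likelihood test called 0 of 17286 genes (0%) at an adjusted p under 0.05, with 245 higher and 257 lower at an unadjusted p under 0.05, and limma-voom called 0. DESeq2 called Sprr1a (log2 difference 1.12, adjusted p = 0.0252), Gal (1.24, adjusted p = 0.0323) and Chl1 (0.89, adjusted p = 0.0474) higher and the noncoding RNA Bc1 lower (-2.48, adjusted p = 4.21e-07). The protein-coding genes of lowest p were Slc4a8, a bicarbonate transporter (log2 difference 0.75, edgeR unadjusted p = 0.000849), Plcxd2 (0.70, 0.00114) and Chl1 (0.89, 0.00116) upwards, and Eng, an endothelial receptor of TGF-beta (-1.21, 0.000463), Thbs4 (-1.43, 0.000587) and the prostaglandin transporter Slco2a1 (-1.14, 0.00141) downwards, each with an adjusted p of 1. Thbs4 read 29.1 and 24.2 CPM at day 7 against 44.1 and 11.4 at day 3. The comparisons by day above describe 1 pair of libraries each.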

How the data were processed

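RNA from pooled ganglia was sequenced, and the authors deposited raw read counts per gene. Per the submitters' processing notes, the tools were STAR 2.5.4a, cutadapt 1.16, DESeq2 and featureCounts 1.6.3, and the build GRCm38. No source used here states the strand setting, the treatment of reads with several matches or the annotation release, so antisense, overlapping and near-identical genes (Mrgpr, globin, tubulin, Reg genes) are uncertain. Of 53801 gene IDs, 53706 were named from GENCODE M21. Libraries held 20488115 to 21652688 reads, so that 3 reads equal 0.139 to 0.15 CPM.

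From these counts, CPM and log2 ratios were computed with edgeR 4.0.16 (TMM scaling, prior count 2) in R 4.3.3, with Python 3.11.15 for the rest, and counting intervals are exact conditional binomial 95% intervals. The tests were edgeR's quasi-likelihood tests with Benjamini-Hochberg adjustment, blocked by pool, with edgeR's count filter (minimum 10), and DESeq2 1.42.0 and limma 3.58.1 as alternatives. The labels give no replicate numbers, and whether pools were independent beyond the mice is not stated. The p-values measure only the left and right spread without injury and the gap between the side differences of days 1 and 3. On simulated data the first test recovered 25, 48, 50 and 50 of 50 genes changed by 1.5, 2, 4 and 8-fold among 16384 genes, and the test of day 7 against days 1 and 3 recovered 4, 21, 47 and 49 of 50 among 16957 genes. They also called 4 and 6 unchanged genes. The simulation gave all genes the same dispersion and no differences between pools or sides beyond the planted changes. These recoveries therefore need not hold for the real libraries. No 2 libraries agreed within sampling noise (chi-square per gene at least 7.01). Promoter sequences are RefSeq's on GRCm38.p6.

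The 46 gene lists hold 894 symbols, 892 of them in the table. The members and lists were chosen with earlier results of these data known. Named genes are protein-coding: the 15 highest and 15 lowest ratios, the 8 largest gains and losses in CPM, up to 6 members of each list with the largest ratios, up to 2 past 2-fold against their list's median, the 3 lowest p each way in the test by day, and Atf3, Sprr1a, Gal, Npy, Csf1, Jun, Sox11, Gap43, Vip, Ecel1, Rbfox3 and Xist. Chosen after their values were seen were Adcyap1, Bc1, Calca, Cd163, Cxcl14, Npy1r, P2rx3, Scn3a, Stat3, Tac1, Trdc, Trpv1 and the 12 genes of the contralateral share with their rule. Some named genes are not reported here.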

Additional observations from a re-analysis of the deposited data

Results flagged for a closer look

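Cell cycle genes went opposite ways in 2 pools. The list median was 0.6 at day 7 and -0.94 at day 1. Of its genes, Cenpf stood at a log2 ratio of 1.28 at day 7 and -2.35 at day 1, Ube2c at 1.22 and -2.81, Cdc20 at 1.13 and -1.92, and Top2a at 1.1 and -3.2. Without injury their left over right log2 ratios were 1.15, 0.72, -0.96 and 0.74, and the list median was 0.34. The erythroid list had a median of -0.41 at day 7, 1.33 at day 3 and -1.14 at day 1. Its left over right median without injury was -0.75, further from 0 than that of day 7. With 1 pair of libraries a day, these differences between days were not tested for the lists. The neutrophil genes of the contralateral library of day 1 summed to 601 CPM, and their part in the cell cycle ratios of day 1 was not tested.

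Xist, outside the main comparison, had 4931 and 4129 reads in the libraries labelled no injury and at most 3 in the others.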

How the results depend on the processing

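Scaling by library total or DESeq2 size factors, or a prior count of 0.5, moved the median of all genes by at most 0.01 and kept the named ratios within the left and right spread. The count of genes past 2-fold upwards was 772 with a minimum of 10 reads, 228 with 200 reads, 646 against the no injury pool and 970 at 1.5-fold. Downwards it was 262, 43, 222 and 732, and 196 with the left over right ratio subtracted. Against the no injury pool Cnn1 turned to 0.17, the mast cell median to -0.17 and the erythroid median to 0.15. With the left over right ratio subtracted Il1rn turned to -0.46, Fosl1 to -0.39, the erythroid median to 0.18 and the median of central nervous system glia genes to -0.11. With 200 reads the latter was -0.12 and the mast cell median -0.04. The cause was not tested.

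The test over the other 6 libraries called 835 genes higher and 415 lower with no count filter, 334 lower with DESeq2, and 0 to 2287 higher and 0 to 2079 lower with each pool left out (0 without the no injury pool). The test of day 7 against days 1 and 3 called 3 higher and 1 lower with DESeq2, 1 lower with no filter, and 0 to 249 higher and 0 to 205 lower with each pool left out (7 and 58 without day 1, 249 and 205 without day 3). Both tests are paired through the pool of mice, which gives the 2 sides of a day. With 1 library a side, depth limits the genes of low counts most.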
